A study of Mus musculus with 72 samples.

Results

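The genes described here bear the names of families that carry membrane vesicles between compartments, sort their cargo and build autophagosomes. They were chosen by symbol alone: protein-coding genes on the autosomes of the mouse annotation whose names begin with Trappc, or with Exoc, Cog, Vps, Snx, Rab or Atg and a number, plus Rb1cc1. The rule took 182 of 20807 autosomal protein-coding genes: 65 Rab, 35 Vps, 29 Snx, 18 Atg, 14 Trappc, 12 Exoc and 8 Cog genes, and Rb1cc1. Each gene was read over its body and the 1000 bp before its start, and a differential site overlapping that stretch was counted with the gene.

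The data are CUT&RUN libraries from the nucleus accumbens of adult male wildtype mice; in this assay an antibody directs a nuclease that cuts out the DNA around a histone mark. The series holds 72 samples in 21 groups for IgG, H3K27me1 and H3K27me2, and the 5 deposited tables of differential sites compare 8 of these groups. The first cohort comprises unstressed controls and mice labelled susceptible or resilient after chronic social defeat, 4 libraries for each group and mark. In the second cohort, mice with early life stress and subthreshold defeat (ELS - SbD) were compared with standard-reared, undefeated mice (Std - Control), with 3 H3K27me1 libraries each. Mice with only early life stress or only subthreshold defeat are in no deposited comparison, so these stresses cannot be told apart. All groups share the wildtype genotype, and the labels used here give neither strain nor exact age. Whether each library stands for its own animal or a pool is not given there, so the spread that p-values measure may be technical. The tissue was whole, so a change in the mix of cell types and a change within cells cannot be told apart.

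TRAPP, the exocyst, COG, HOPS, CORVET and GARP are tethers: protein complexes that catch an incoming vesicle at its target membrane. Rab proteins are small GTPases that mark each membrane and recruit tethers and motors, while sorting nexins and retromer return cargo from endosomes. Atg proteins and Rb1cc1 (FIP200, a subunit of the ULK kinase complex) build the autophagosome, and neurons use these routes to move receptors and to clear material from axons and dendrites. Monomethylation of lysine 27 of histone H3 (H3K27me1) is known from the bodies of transcribed genes, and dimethylation (H3K27me2) covers broad stretches outside them.

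A site here is a window of at least 1000 bp that the authors called different between groups at an adjusted p below 0.05. Per the file headers, the susceptible and resilient tables rest on a G-test of reads summed within each group, and the ELS - SbD table on a negative binomial test. The names of the susceptible and resilient files carry the letters nb, often short for negative binomial, so header and name may conflict on the test behind their p-values; the headers were followed. Values are the deposited normalised reads per library in the site. Fold changes are limma estimates on log2(normalised reads + 1) with the standard error between libraries. Exact permutation tests over libraries were two-sided; with 4 libraries against 4 they cannot go below 0.0286, and with 3 against 3 not below 0.1. Because the sites were picked on these same libraries, limma's unadjusted p and the exact permutation p are not separate evidence. Limma's p describes the spread between libraries, and the lowest possible permutation p says only that the groups did not overlap. Adjusted over every window tested, limma called no site in the susceptible, resilient or ELS - SbD table for H3K27me1; the lowest adjusted p at a member site was 0.267 for susceptible, 0.424 for resilient and 0.0896 for ELS - SbD mice. At an unadjusted p below 0.05, limma passed 224 of 229 member sites in the susceptible table (97.8%, background 97.2%), 117 of 121 in the resilient table (96.7%, background 98.1%) and 59 of 59 in the ELS - SbD table (background 98.8%). The susceptible and resilient tables share their 4 control libraries and were normalised separately, so their values are set side by side only. Mean depth was 20.57 to 30.39 reads per 1000-bp bin in the H3K27me1 libraries of the defeat cohort and 5.0 to 7.78 in the second cohort.

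In susceptible mice, 82 of the 182 genes (45.1%) held a differential H3K27me1 site, against 20.9% of all autosomal protein-coding genes. Genes with lower sites outnumbered those with higher ones: 52 genes held lower sites only, 16 higher sites only and 14 both. Counted by gene, 66 (36.3%, background 16%) had a lower site and 30 (16.5%, background 8.34%) a higher one. The 229 sites divided into 104 higher and 125 lower, so 45.4% were higher against 51.6% of sites in all genes. The median fold change was 0.41 at higher and -0.41 at lower sites on the log2 scale. At 124 sites (54.1%, background 52.8%) no susceptible library overlapped a control library, a share near the background.

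In resilient mice, 54 genes (29.7%, background 15.5%) held 121 sites, 56 higher and 65 lower; 46.3% were higher against 48.8% in all genes. Lower sites only were found in 26 genes, higher only in 15 and both in 13. A higher site lay in 28 genes (15.4%, background 8.13%) and a lower one in 39 (21.4%, background 10.7%). The groups did not overlap at 60 sites (49.6%, background 54.8%).

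In ELS - SbD mice, 35 genes (19.2%, background 13.6%) held 59 sites. Here higher sites were the more frequent, 41 against 18 lower; 69.5% of sites were higher, beside 66.6% in all genes. Higher sites only lay in 19 genes, lower only in 13 and both in 3. A higher site lay in 22 genes (12.1%, background 9.79%) and a lower one in 16 (8.79%, background 5.44%). The groups did not overlap at any of the 59 sites, as at 99.1% of all sites in genes of that table. Neither H3K27me2 table, for susceptible or resilient mice, held a site in any of the 182 genes; 0.769% and 1.22% of all genes held one there. For susceptible mice 0.509% of all genes held a higher and 0.356% a lower H3K27me2 site, for resilient mice 0.774% and 0.596%, and 65.1% and 62.7% of those sites were higher.

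**Figure D1:**
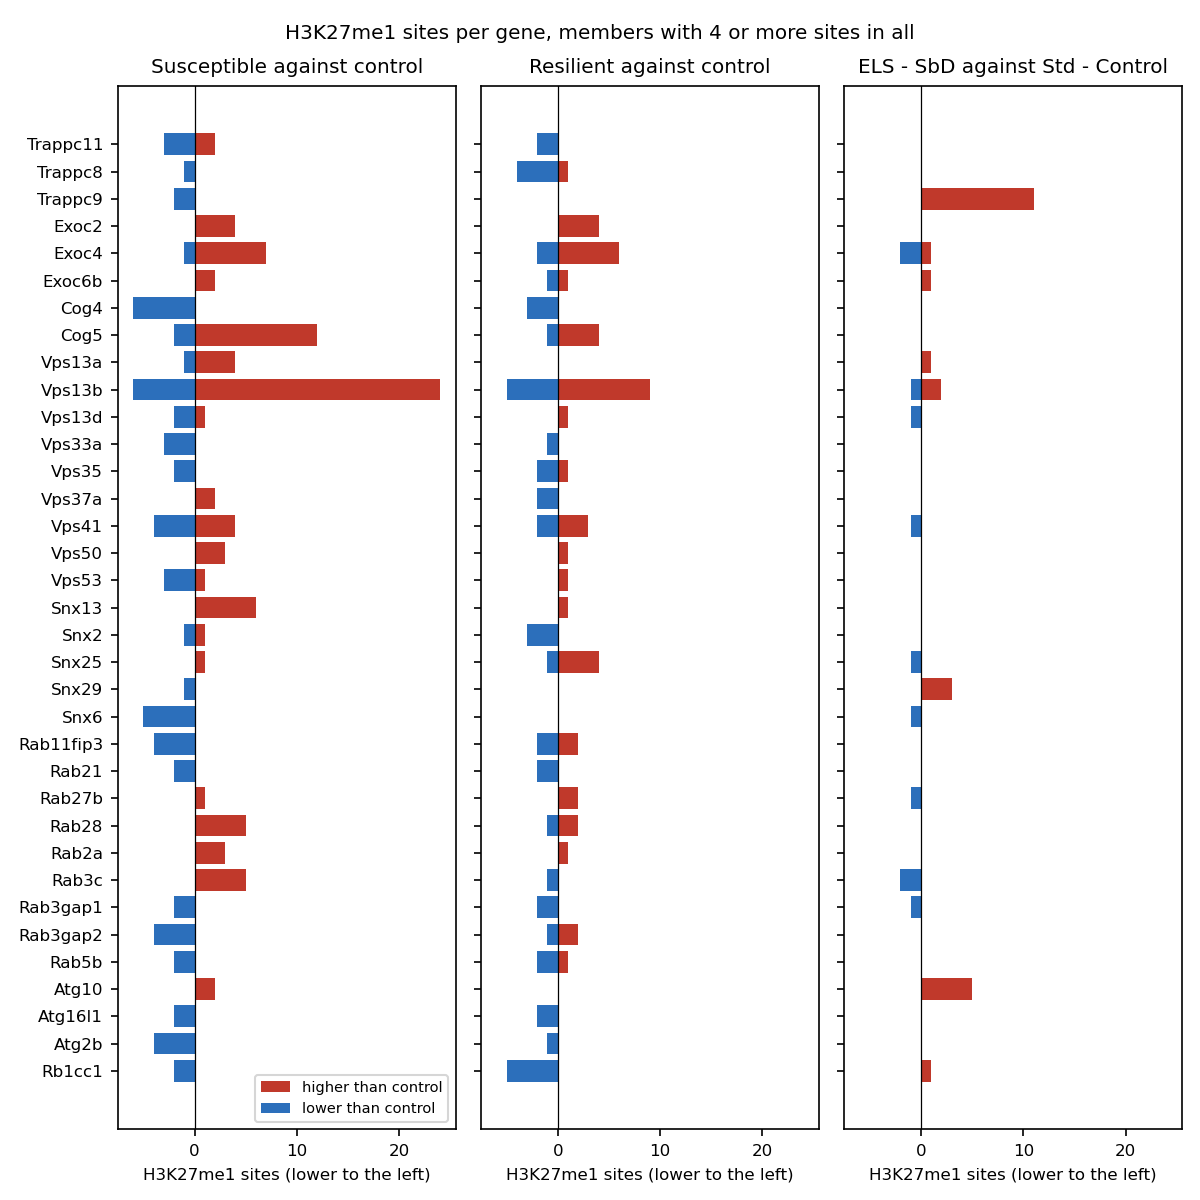
Number of H3K27me1 sites per gene (horizontal axis, lower sites to the left and higher sites to the right) in the 3 comparisons, for the 35 genes with 4 or more sites in all, ordered by family. Vps13b reaches 24 higher sites in susceptible mice, while Trappc9 has 11 higher sites in the ELS - SbD comparison and none in the resilient one.

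The TRAPP genes encode subunits and partners of complexes that tether vesicles at the Golgi and take part in starting autophagosomes. Beside the family counts here and below stand the shares of all genes with a site. These were 20.9% (susceptible), 15.5% (resilient) and 13.6% (ELS - SbD). Counts of sites without overlap stand beside 52.8%, 54.8% and 99.1% of sites in all genes. In susceptible mice 7 of the 14 TRAPP genes (50%) held a site, 2 higher and 13 lower. The leading site was in Trappc10, a TRAPPII subunit, over coding exons at chr10:78191701-78195300 (mm10). Its susceptible libraries held 288, 242, 298 and 315 normalised reads and its control libraries 424, 347, 438 and 380. All 4 susceptible libraries lay below all 4 controls (limma log2 fold change -0.47 ± 0.14 SE; exact permutation p = 0.0286), and the authors' deposited table lists its adjusted p as 0. Trappc3, a core subunit, was lower by the same measure at -0.50 ± 0.15. Trappc11 was lower at its leading site in both chronic defeat comparisons, at overlapping windows in its coding exons. It also held both higher sites of the family in susceptible mice, neither with overlapping groups (0.41 ± 0.14 and 0.29 ± 0.14). Its resilient libraries held 332, 336, 309 and 266 reads against 367, 389, 399 and 391 in controls, with no overlap. The fold change was -0.32 ± 0.13 there and -0.34 ± 0.14 in susceptible mice; limma's p rose above 0.05 without resilient library 36 (0.093), and in the susceptible table without susceptible library 29 or control library 28 (up to 0.107). Resilient mice had sites in Trappc11 and Trappc8 only (14.3% of the family, background 15.5%), 6 lower and 1 higher.

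In the ELS - SbD comparison 2 of the 14 TRAPP genes held sites (14.3%, background 13.6%). Of these sites 12 were higher and none was lower. Trappc9, a TRAPPII subunit, held 11 of them, spread from 6.10 to 452.30 kb along a gene of 471.6 kb. At the leading one, chr15:72683901-72685200 in an intron, ELS - SbD libraries held 45.9, 55.99 and 65.8 reads and Std - Control libraries 22.7, 23.3 and 32.3. The fold change was 1.07 ± 0.21 (exact permutation p = 0.1), and the 11 sites ranged from 0.80 to 1.16. In 9 of the 11 the control group lay below its IgG background in the authors' deposited enrichment ratio, and in 2 the ELS - SbD group did too. In susceptible mice Trappc9 held 2 lower sites instead, at other positions. The leading one, over coding exons 11.90 kb from the start, held 279 ± 11.9 reads against 355 ± 27.0 (SD, n = 4 each), at -0.34 ± 0.13; without control library 31 limma's p was 0.0511. Trappc12 had its leading susceptible site lower (-0.36 ± 0.15, overlapping groups; limma's p rose to at most 0.087 without any one of susceptible libraries 29 and 32 or control libraries 31 and 34) and its ELS - SbD site higher (0.70 ± 0.18), at different windows of the gene.

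The exocyst tethers secretory vesicles at the plasma membrane. The 12 Exoc-named genes include Exoc3l, Exoc3l2 and Exoc3l4. In susceptible mice 6 of the 12 held sites, 13 higher and 8 lower, and in resilient mice 4 held 11 higher and 4 lower. Exoc4, 724.9 kb long, held 7 higher sites and 1 lower one in susceptible mice and 6 and 2 in resilient mice. At the leading susceptible site, in an intron at chr6:33428301-33430600, susceptible libraries held 176, 189, 171 and 176 reads and controls 130, 126, 112 and 128. Each susceptible library exceeded every control there, which held at 1 of the 7 higher sites (0.52 ± 0.13, exact permutation p = 0.0286). Exoc6b had the largest fold change of any higher member site in that table, 0.67 ± 0.14 (exact permutation p = 0.0286). Its libraries held 76.1, 80.4, 84.7 and 79.3 reads in susceptible mice and 57.9, 42.6, 45.9 and 54.1 in controls, without overlap. The smaller Exoc1, Exoc3 and Exoc7 held lower sites only. At Exoc1 the susceptible libraries held 128, 122, 178 and 121 reads against 191, 190, 217 and 192, lower by -0.54 ± 0.15 (exact permutation p = 0.0286). In the ELS - SbD comparison Exoc5 was lower at coding exons (114 ± 15.8 against 194 ± 27.6 reads, SD, n = 3 each; -0.76 ± 0.20), while Exoc4 held 1 higher and 2 lower sites.

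The COG complex tethers vesicles that recycle enzymes within the Golgi. Its 8 genes divided by gene in susceptible mice: Cog5, of 282.8 kb, held 12 higher and 2 lower sites, whereas Cog1, Cog2, Cog3 and Cog4 together held 11 lower sites and no higher one. The leading Cog5 site overlapped between groups. Susceptible libraries held 313, 340, 293 and 318 reads and controls 235, 317, 246 and 225, the control library 28 lying among the susceptible ones. Its fold change was 0.31 ± 0.14 (exact permutation p = 0.0857). Limma's p rose above 0.05 without any one of susceptible libraries 26, 29 and 35 or control libraries 25, 31 and 34, up to 0.107. At 9 of the 12 higher Cog5 sites the groups did not overlap. Cog4, of 35.6 kb, was picked out after its values were seen: its 6 lower sites ranged from -0.43 to -0.30. At the leading one, chr8:110855201-110856700 in an intron, susceptible libraries held 113, 117, 125 and 136 reads and controls 164, 184, 162 and 148, without overlap (-0.42 ± 0.14, exact permutation p = 0.0286). Resilient mice had 4 higher and 1 lower site in Cog5 and 3 lower sites in Cog4. No COG gene held a site in the ELS - SbD table.

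**Figure D2:**
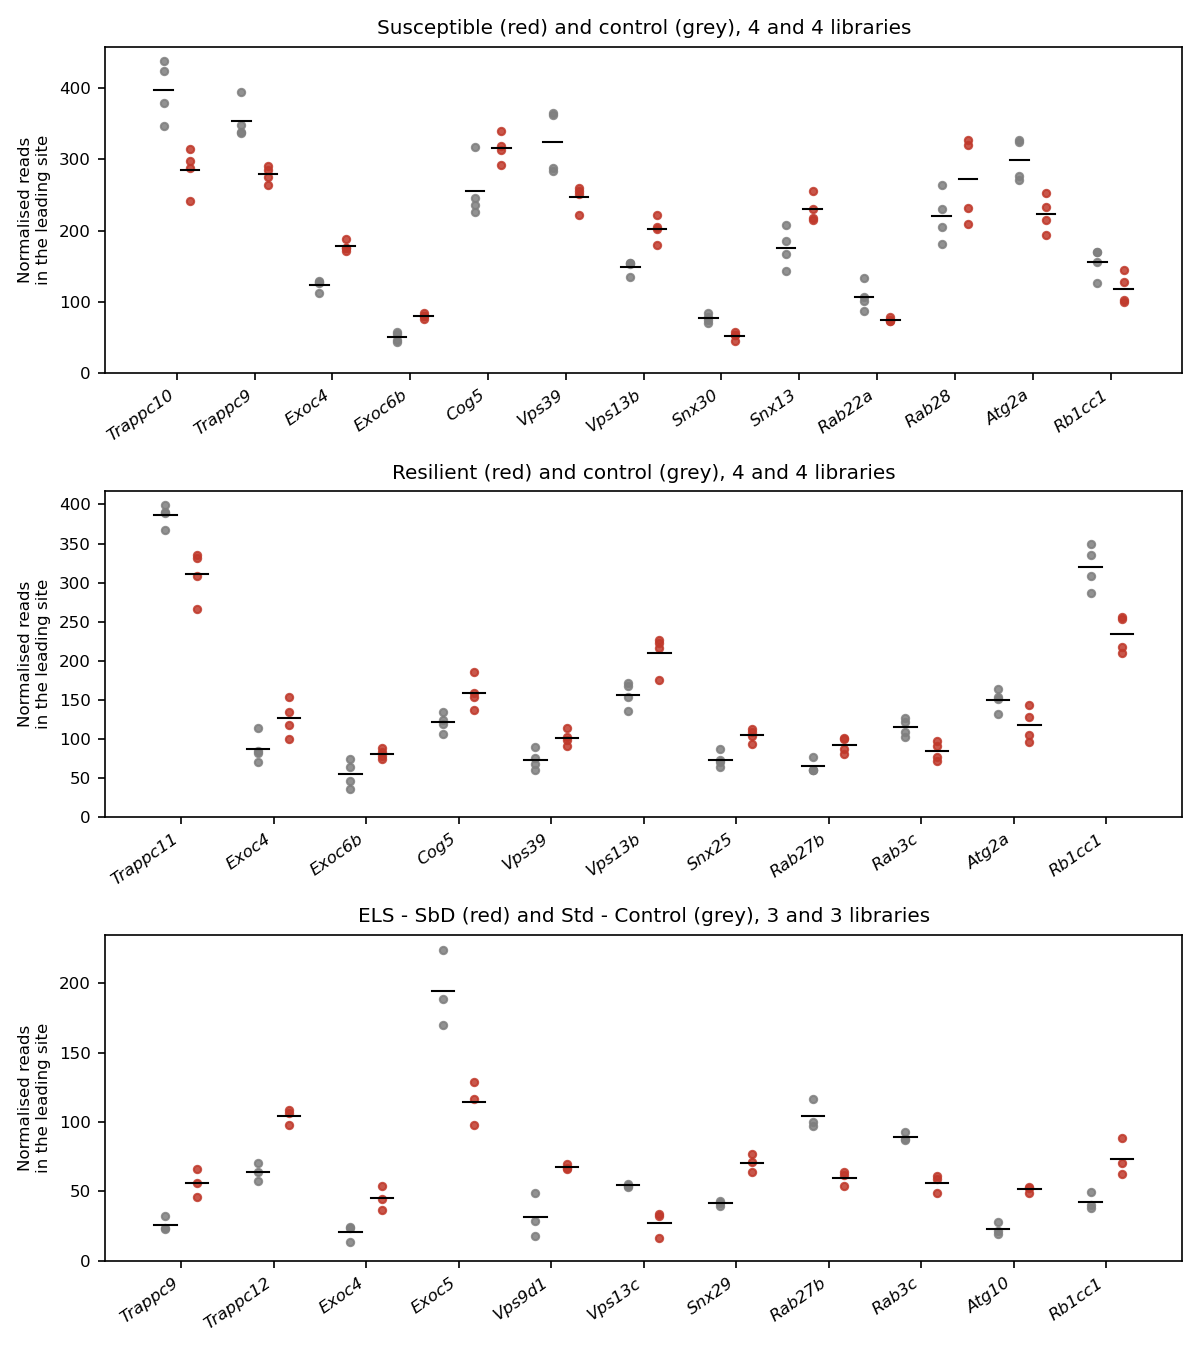
Normalised reads per library (vertical axis, from 0) at the leading H3K27me1 site of genes chosen from each family, with stressed libraries in red, controls in grey and a black bar at each group mean. Trappc10 and Exoc4 separate fully in susceptible mice, whereas Cog5 and Rab28 overlap; all ELS - SbD groups shown separate.

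The Vps genes, first found through yeast mutants in sorting to the vacuole, include tethers, retromer, ESCRT subunits and the VPS13 lipid-transfer proteins. Sites lay in 19 of 35 genes in susceptible mice (43 higher, 32 lower), in 12 in resilient mice (17 and 16) and in 9 in ELS - SbD mice (8 and 4). Vps13b alone, of 560.1 kb, held 24 of the 43 higher sites, with 6 lower ones. Its leading site, in an intron at chr15:35697201-35699100, held 221, 205, 179 and 202 reads in susceptible libraries and 154, 154, 153 and 135 in controls. All susceptible libraries were above all controls (0.43 ± 0.13, exact permutation p = 0.0286). Higher sites of the gene had a median of 0.40 and lower ones of -0.34. Groups did not overlap at 9 of the 24 higher and 3 of the 6 lower sites (background 52.8%). Resilient mice held 9 higher and 5 lower sites in Vps13b. Its leading ELS - SbD site was higher at 182, 123 and 109 reads against 98.8, 80.7 and 82.8 (0.62 ± 0.22), a value that fell to 0.41 without ELS - SbD library 40, where limma's p was 0.0751.

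Vps35, the core retromer subunit, was lower in susceptible mice. Its libraries held 63.2, 103, 79.9 and 96.7 reads against 121, 120, 114 and 114.5 in controls, without overlap (-0.47 ± 0.15, exact permutation p = 0.0286). In resilient mice Vps35 held 2 lower sites with overlapping groups (leading -0.43 ± 0.14) and 1 higher intronic site without overlap (0.52 ± 0.14). Among HOPS subunits, which tether late endosomes and autophagosomes to lysosomes, Vps33a was lower at -0.40 ± 0.14 in susceptible and -0.44 ± 0.14 in resilient mice. Vps39 differed between neighbouring windows of the gene. In susceptible mice it was lower over coding exons at chr2:120325101-120327400, with 256, 222, 252 and 260 reads against 288, 283, 363 and 366 (-0.38 ± 0.14, exact permutation p = 0.0286). In resilient mice its leading site was higher at chr2:120327301-120328300, with 113, 102, 98.0 and 90.6 reads against 66.95, 60.4, 75.2 and 89.9 (0.47 ± 0.14, exact permutation p = 0.0286). Susceptible mice held a higher site at nearly that window too, chr2:120327301-120328400, with overlapping groups (0.45 ± 0.15). Vps41 held 4 higher and 4 lower sites in susceptible mice, interspersed along its 149.5 kb.

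Vps50, a subunit of the EARP tether of endosomes, was higher in susceptible mice at 194, 193, 173 and 232 reads against 156, 152, 148 and 148, without overlap (0.38 ± 0.14, exact permutation p = 0.0286; limma's p was 0.0508 without susceptible library 35). It was higher in resilient mice too (0.42 ± 0.14). Of the GARP subunits, which tether vesicles returning to the Golgi, Vps54 was higher at its leading susceptible site with overlapping groups (0.41 ± 0.16). That value was 0.25 without control library 31, and limma's p rose above 0.05 without that library or susceptible library 35, up to 0.116. Vps52 held lower sites only in that table and Vps53 held 3 lower sites and 1 higher. Vps13c was lower in ELS - SbD mice at coding exons, with 16.05, 33.6 and 32.4 reads against 53.35, 55.4 and 54.05 (-1.03 ± 0.25, exact permutation p = 0.1). Vps13d was lower there at 88.8 ± 26.4 against 135 ± 9.86 reads (SD, n = 3 each; -0.65 ± 0.23); without ELS - SbD library 48 the fold change was -0.38 and limma's p 0.0837.

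**Figure D3:**
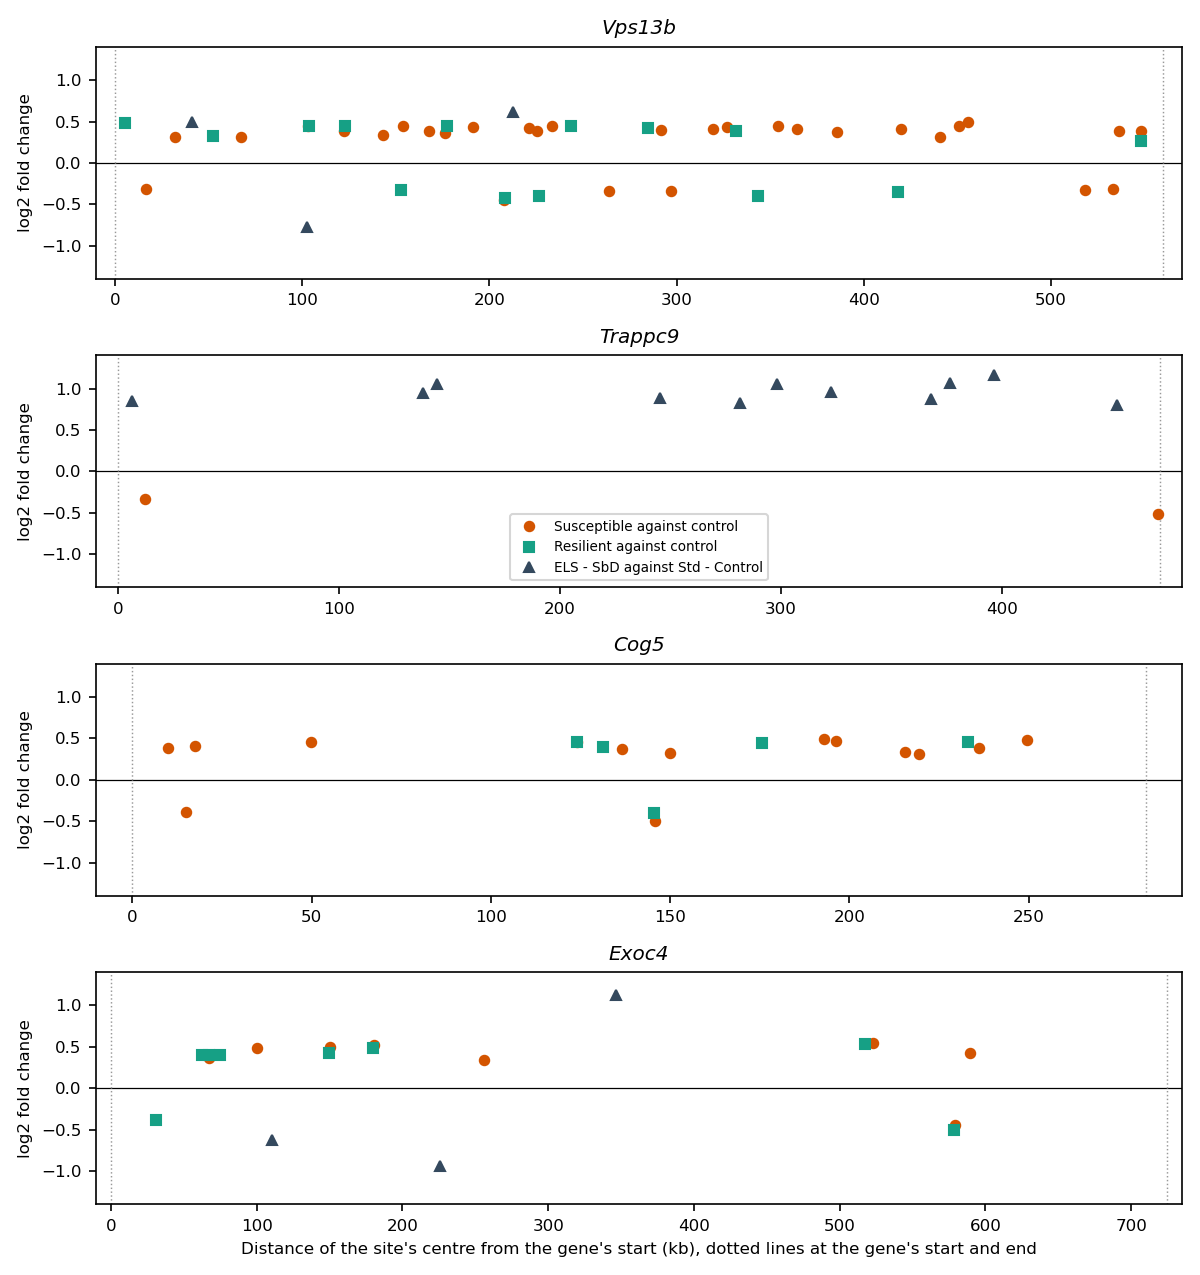
Fold change of each H3K27me1 site (vertical axis, limma log2) against the distance of its centre from the gene's start (horizontal axis, kb) in 4 genes with many sites, by comparison. Higher and lower sites are interspersed along Vps13b and Exoc4, while all 11 ELS - SbD sites of Trappc9 lie above 0.

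Sorting nexins bind endosomal membrane through a PX domain. In susceptible mice 14 of 29 held sites, 13 higher and 14 lower; in resilient mice 10 did, 10 higher and 7 lower. Snx13 held 6 higher and no lower sites in susceptible mice. Its leading site held 215, 256, 218 and 231 reads in susceptible libraries and 143, 207, 166 and 186 in controls, without overlap (0.40 ± 0.14, exact permutation p = 0.0286; limma's p was 0.0566 without control library 25). Snx6, a partner of retromer, held 5 lower and no higher sites. Groups overlapped at its leading one (-0.47 ± 0.16), where limma's p rose above 0.05 without susceptible library 26 or control library 28 (up to 0.0573). Snx27, which recycles receptors with retromer, was higher at 188, 173, 165 and 178 reads against 106, 156, 149 and 118 at the leading of its 2 higher sites (0.43 ± 0.15), and held 1 lower site with overlapping groups (-0.38 ± 0.16). Snx25 held 4 higher and 1 lower site in resilient mice, leading at 104, 93.1, 113 and 109 reads against 69.8, 86.5, 63.2 and 72.7 (0.52 ± 0.14, exact permutation p = 0.0286).

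Snx30 gave sites of opposite direction in the susceptible and ELS - SbD comparisons. In susceptible mice the site at chr4:59900001-59901000, over untranslated exon sequence, held 57.3, 53.3, 44.8 and 52.9 reads against 83.7, 70.3, 78.9 and 73.7 (-0.55 ± 0.14, exact permutation p = 0.0286). A window that overlaps it only in part, chr4:59899201-59900200, held 58.5, 72.8 and 63.65 reads in ELS - SbD mice against 39.5, 44.7 and 33.1 (0.72 ± 0.19, exact permutation p = 0.1). The groups did not overlap in either comparison, and the difference between them was not tested, since the 2 tables share no library and were normalised separately. The other ELS - SbD sites of the family were 7 higher and 3 lower, and Snx29 held 3 of the higher ones (leading 0.75 ± 0.18).

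Of the 65 Rab-named genes, 20 (30.8%, background 20.9%) held a site in susceptible mice, 19 higher and 26 lower. In resilient mice 16 did (24.6%, background 15.5%), 12 higher and 16 lower. In ELS - SbD mice 7 did, below the background share (10.8%, background 13.6%), 2 higher and 6 lower. The name covers GTPases and their regulators and effectors. Rab3c, a GTPase of synaptic vesicles, held 5 higher sites in susceptible mice, 1 lower site in resilient mice and 2 lower sites in ELS - SbD mice, at windows that differed. The leading susceptible site overlapped between groups, at 112, 148, 152 and 96.7 reads against 109, 67.98, 99.2 and 101 (0.42 ± 0.17), and 3 of its 5 higher sites did not; the leading value was 0.27 without control library 28, and limma's p rose above 0.05 without that library or susceptible library 29 or 32, up to 0.106. The resilient site held 97.05, 76.5, 90.2 and 71.3 reads against 126, 121, 102.5 and 109 (-0.45 ± 0.14, exact permutation p = 0.0286), and the leading ELS - SbD site 60.8, 58.8 and 48.55 against 92.9, 87.5 and 87.2 (-0.67 ± 0.18, exact permutation p = 0.1). Each of these had no overlap.

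Rab27b, a GTPase of regulated secretion, was higher in both defeat comparisons (0.42 ± 0.15 in susceptible mice with overlapping groups, 0.51 ± 0.14 in resilient mice without overlap) and lower in ELS - SbD mice at 64.2, 54.1 and 61.5 reads against 96.8, 117 and 100.25 (-0.79 ± 0.19, exact permutation p = 0.1). These leading sites were different windows of the gene, centred 101.25, 113.45 and 78.45 kb from its start in susceptible, resilient and ELS - SbD mice. Rab28 held 5 higher sites in susceptible mice. Its leading site had 320, 328, 232 and 210 reads against 205, 264, 181 and 231, with overlap, and limma's p was 0.0774 (0.29 ± 0.16; 0.19 without susceptible library 29). Rab22a, a GTPase of early endosomes, was lower over coding exons at 72.1, 72.2, 73.8 and 78.4 reads against 133, 100, 87.5 and 107 in susceptible mice (-0.51 ± 0.14), and lower at another window in ELS - SbD mice (-0.83 ± 0.20). It also held a higher intronic site in susceptible mice, without overlap (0.56 ± 0.16). Among regulators, Rab3gap1, a subunit of the exchange factor for Rab18 and activating protein for Rab3, held lower sites only, in all 3 comparisons: -0.42 ± 0.14 in susceptible, -0.34 ± 0.14 in resilient and -0.64 ± 0.19 in ELS - SbD mice at its leading sites. The resilient value lost limma's p below 0.05 without resilient library 36 or control library 25 (up to 0.0575). Rab11fip3, an effector of recycling endosomes, held 4 lower sites in susceptible mice, leading at 63.2, 76.8, 87.1 and 72.95 reads against 116, 93.3, 126 and 106 (-0.55 ± 0.14, exact permutation p = 0.0286). In resilient mice the gene held 2 higher (0.54 and 0.43) and 2 lower sites, all without overlap.

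The Atg genes had the lowest share of higher sites among the 7 families in susceptible mice, at 10.5%, close to the 13.3% of the TRAPP genes. Gene length was not matched between families. Sites lay in 10 of 18 genes, 2 higher and 17 lower, and both higher ones were in Atg10, the enzyme that joins Atg12 to Atg5 (leading 0.32 ± 0.16 with overlapping groups; 0.20 without control library 31). Atg2a, a lipid-transfer protein of the growing autophagosome, was lower at 215, 193, 234 and 253.5 reads against 327, 277, 324 and 272 at chr19:6253201-6255700 over coding exons, without overlap (-0.42 ± 0.14, exact permutation p = 0.0286). Atg4b, the protease that processes the Atg8 family, was lower at 344, 281, 300 and 273 reads against 369, 377, 377 and 353 (-0.31 ± 0.13). Limma's p rose above 0.05 without any one of susceptible libraries 29 and 35 or control libraries 25, 28 and 31, up to 0.089. Atg16l1 and Atg2b had lower sites in both defeat comparisons and no higher one, while Atg4c had 1 lower site in susceptible and 1 higher site in resilient mice. Resilient mice held 1 higher and 5 lower sites in the family.

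The same family in ELS - SbD mice held 8 higher and 2 lower sites in 5 genes. Atg10 held 5 of the higher ones, all in introns. At the leading one, chr13:91160501-91161900, ELS - SbD libraries held 52.75, 48.5 and 52.9 reads and Std - Control libraries 21.7, 19.4 and 27.9 (1.14 ± 0.19, exact permutation p = 0.1), and limma's unadjusted p was lower there than at any other member site of the table. The control group was below IgG at 3 of the 5. Atg7, which activates Atg8 and Atg12, had 1 higher and 1 lower site, and Atg5 had 1 lower site. The lower Atg7 site (-1.02) was below IgG in both groups.

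Rb1cc1, which has the Atg family's role in starting autophagosomes, held lower sites in both defeat comparisons. In resilient mice there were 5, between 21.90 and 57.40 kb from the start of a 70.5-kb gene, from -0.45 to -0.34. The leading one, over coding exons at chr1:6262401-6264800, held 210, 254, 218 and 255 reads against 287, 308, 336 and 349, without overlap (-0.45 ± 0.14, exact permutation p = 0.0286). In susceptible mice 2 sites were lower, leading at 99.8, 102, 144 and 128 reads against 155, 169, 170 and 126, with overlap (-0.39 ± 0.15; limma's p was 0.0608 without susceptible library 26). An intronic site in ELS - SbD mice, 7.10 kb from the start, was higher at 88.3, 62.5 and 70.1 reads against 49.4, 37.9 and 40.1 (0.77 ± 0.20, exact permutation p = 0.1).

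Sites at gene starts were few among the member sites, and such sites were not counted over all genes. In susceptible mice 2 of 125 lower sites and none of 104 higher ones lay at a start: Exoc3 (60.7 ± 7.21 against 84.1 ± 16 reads, -0.45 ± 0.15) and Vps4a, the ATPase that recycles ESCRT filaments (51.9 ± 9.88 against 77.1 ± 11.1 reads, SD, n = 4 each, -0.57 ± 0.15). Among ELS - SbD sites 3 higher ones did: Atg13, a ULK complex subunit, Snx33, a nexin of endocytosis, and Vps9d1, a VPS9-domain protein. At Atg13 the libraries held 51.6, 51.3 and 52.9 reads against 33.6, 21.4 and 32.3 (0.84 ± 0.21), at Snx33 24.1, 28.9 and 27.0 against 9.88, 10.7 and 16.6 (1.08 ± 0.21), and at Vps9d1 69.95, 66.25 and 66.9 against 28.65, 17.5 and 48.8 (1.19 ± 0.28). In the authors' deposited table, the ratio of signal to IgG at these 3 sites was 0.33, 0.23 and 0.34 in the control group and 0.46, 0.39 and 0.83 in the ELS - SbD group, so both groups were below IgG at each. Those 3 sites were chosen for their position.

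The upstream sequence was printed for the genes whose ELS - SbD site covered it whole, because it shows what kind of start these sites lie on. It is the 250 bases before the RefSeq start on the minus strand of GRCm38.p6, 5′ to 3′ as transcribed, with CG dinucleotides in capitals.
Atg13, chr2:91710593-91710842: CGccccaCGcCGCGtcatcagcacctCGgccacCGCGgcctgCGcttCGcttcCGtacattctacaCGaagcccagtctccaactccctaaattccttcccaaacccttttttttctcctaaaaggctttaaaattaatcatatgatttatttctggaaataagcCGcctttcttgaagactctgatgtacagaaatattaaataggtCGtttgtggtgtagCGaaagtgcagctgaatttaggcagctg
Snx33, chr9:56928372-56928621: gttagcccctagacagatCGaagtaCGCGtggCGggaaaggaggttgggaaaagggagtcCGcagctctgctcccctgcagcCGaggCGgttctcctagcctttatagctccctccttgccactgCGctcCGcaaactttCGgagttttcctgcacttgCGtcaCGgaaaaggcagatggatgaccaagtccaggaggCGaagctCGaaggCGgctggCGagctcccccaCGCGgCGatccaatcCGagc
Atg13 holds 14 CG dinucleotides and Snx33 20. The median was 17.5 over the 138 of 182 genes with a promoter in the RefSeq table and 10 over all 16456 autosomal protein-coding genes there. The hexamer CACGTG, the centre of the element bound by TFEB, a regulator of lysosome and autophagy genes, is its own reverse complement, so 1 search covers both strands. It lay in the 250 bases of 17 of the 138 (12.3%), against 6.71% of all promoters, and in neither sequence printed here. The hexamer itself holds a CG, and these shares were not matched for CG content. Of the promoters with the motif, 6 were among 40 genes with lower sites only in susceptible mice (15.0%) and 10 among 75 with no site (13.3%). Another 1 was among 13 with higher sites only (7.69%), and 0 were among 10 with both.

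Direction moved with gene length in the susceptible table, for these genes as for all genes. In susceptible mice 1 of 32 sites in members under 30 kb was higher (3.12%), beside 11.5% in all genes of that length. Between 30 and 100 kb, 28.3% of 92 sites were higher (all genes 34.9%), and over 100 kb 73.3% of 105 (all genes 75.0%). In resilient mice the shares of higher sites were 25%, 26.4% and 73.1% in members and 26.2%, 40% and 60.7% in all genes. Median length in the susceptible table was 93.8 kb for members with higher sites only, 37.1 kb with lower only and 22.1 kb with no site. Genes of this set are longer than the average gene (median 33 against 17.6 kb). Within each length class their share with a site was above that of all genes in susceptible mice: 26.4% against 11.4%, 57.4% against 33.7%, and 74.1% against 47.9%. For ELS - SbD mice these shares were 3.45% against 4.2%, 22.1% against 19.1%, and 63% against 55.8%. Length was not matched within these classes, and the shares of all genes were not limited to transcribed genes. No test was made of these shares.

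**Figure D4:**
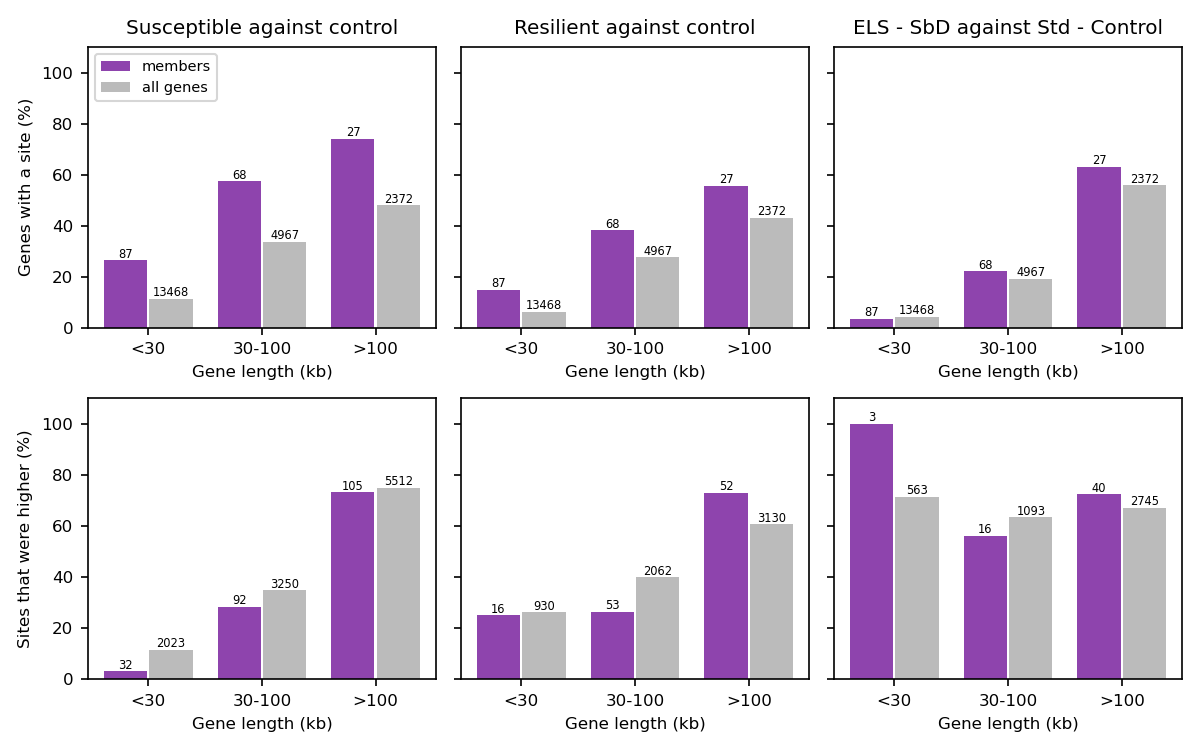
Share of genes with a site (upper row, %) and share of sites that were higher (lower row, %) by gene length in kb, for the 182 genes (purple) and all autosomal protein-coding genes (grey), with the number of genes or sites over each bar. In susceptible mice the share of higher sites climbs from 3.12% to 73.3% in the members and from 11.5% to 75.0% in all genes.

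Base composition moved with direction in the susceptible and ELS - SbD tables. Genes were divided into 3 equal classes by the GC content of their transcripts. In susceptible mice 69% of 84 member sites in the low class were higher (all genes 73.6%) and 3.12% of 32 in the high class (all genes 10.6%). The ELS - SbD table had the other order, 50% of 16 sites in the low class and 94.7% of 19 in the high class (all genes 54.2% and 81.8%); Trappc9 alone holds 11 of those 19 sites. In resilient mice the shares from the low to the high class were 47.2%, 49.1% and 27.3% in members, without a steady order. For all genes there they were 53.9%, 46.8% and 37.5%. The part of GC content and length in the direction of single genes was not tested. Higher sites in susceptible mice were mostly intronic (82 of 104), while 61 of 125 lower sites overlapped a coding exon. Of the 104 higher sites, 77 lay in members over 100 kb. Introns and exons were not counted over all genes, so this contrast is not read as particular to the set. The part of gene length in it was not tested. Lower sites lay farther along the gene: 42.4% were in the last of 3 equal parts of the gene against 26.9% of higher sites, beside 43% and 32.1% in all genes.

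Signal over IgG differed between the tables. In susceptible mice the control group's median ratio in the authors' deposited table was 2.71 at higher and 3.80 at lower member sites, and no member site was below IgG in both groups. In ELS - SbD mice the control group's median was 0.85 at higher sites and 2.66 at lower ones. There, 23 of 41 higher sites had a control group below IgG, and 5 higher and 1 lower site were below it in both groups. Each group has its own IgG libraries, and the ratio moved against the site's direction at 7 higher and 9 lower susceptible sites, 3 higher and 10 lower resilient sites, and no ELS - SbD site. Among these were leading susceptible sites of genes named above. The ratio in susceptible and control mice was 3.9 and 3.58 at the lower site of Trappc12. It was 3.75 and 3.26 at that of Cog3, 2.13 and 2.1 at that of Atg4c, and 4.56 and 5.02 at the higher site of Vps54. The part of the background in these differences was not tested.

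**Figure D5:**
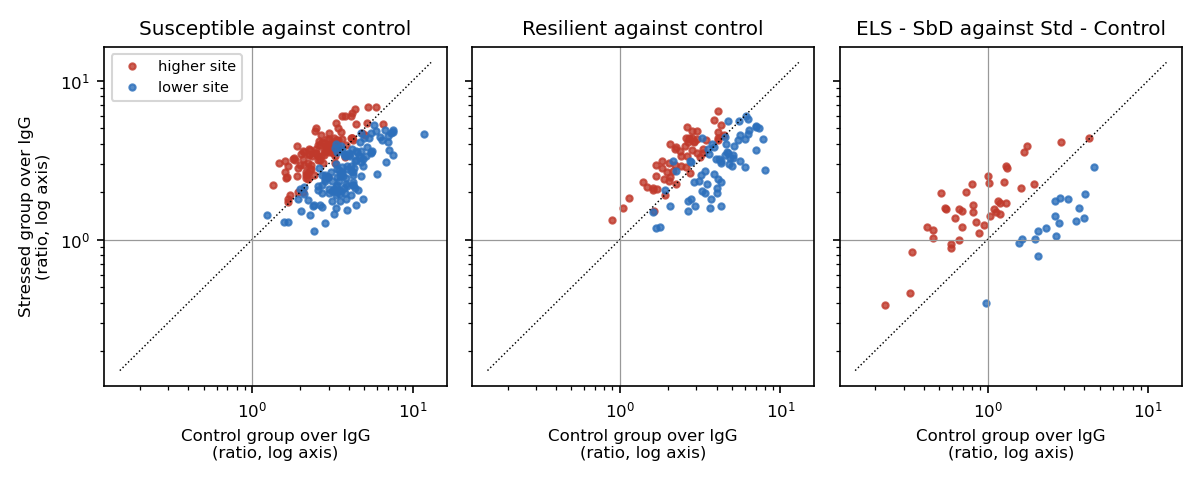
Authors' ratio of H3K27me1 signal to IgG in the stressed group (vertical log axis) against the control group (horizontal log axis) at each member site, red for higher and blue for lower sites, with grey lines at a ratio of 1 and a dotted line where both groups are equal. All defeat-cohort sites but 1 lie above 1 in both groups, whereas 23 higher ELS - SbD sites have a control ratio below 1.

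Some genes held sites in more than 1 cohort. Of the 82 genes with a site in susceptible mice, 22 also had one in ELS - SbD mice (26.8% of the former, 62.9% of the latter's 35); for resilient mice it was 14 of 54 (25.9% and 40%). A site in all 3 tables was held by 11 genes: Exoc4, Exoc6b, Rab27b, Rab3c, Rab3gap1, Rb1cc1, Snx25, Snx30, Vps13b, Vps13d and Vps41. Among all 182 genes, 45.1% held a susceptible, 29.7% a resilient and 19.2% an ELS - SbD site. Such overlaps were not counted over all genes, so they are not read as particular to this set. The susceptible and resilient tables also share their control libraries. The median length of the 3 genes with both directions in ELS - SbD mice was 560 kb. Of the 182 genes, 80 held no site in any table, among them Atg9a, Atg12, Rab3a, Rab5a and Rab11a.

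Other genes of these routes, listed by name with earlier results known, were counted in the same way; the background shares of genes with a site are the 20.9%, 15.5% and 13.6% given above for susceptible, resilient and ELS - SbD mice. Autophagy genes outside the symbol rule held sites in 18 of 30 in susceptible mice, 15 of them lower only (Becn1, Ulk1, Pik3c3 and Wipi2 among them), 1 higher only (Stx17) and 2 both. In resilient mice 14 did, 8 lower only, 3 higher only (Becn1, Pik3r4 and Stx17) and 3 both. Becn1 thus had opposite directions in the susceptible and resilient comparisons. In ELS - SbD mice 6 did, 4 lower only and 2 higher only (Optn and Wdfy3). Genes of the WASH complex and of coat adaptors, which act with retromer and clathrin, held sites in 16 of 25 in susceptible mice, all lower only, with 29 lower sites at a median of -0.44. In resilient mice 11 of them did, 9 lower only, 1 higher only (Ap1g1) and 1 both (Ap3b1), and in ELS - SbD mice 3 did, all lower only. Rab regulators, of which 2 are also among the 182, held sites in 20 of 39 genes in susceptible mice (30 higher, 28 lower), 21 in resilient mice (32 and 29) and 19 in ELS - SbD mice (18 and 12). Other tethers held sites in 15 of 20 genes (24 higher, 19 lower), 12 (13 and 16) and 4 (4 and 1), in the same order of comparisons. ESCRT genes held them in 9 of 19 (9 and 9), 9 (2 and 11) and 4 (3 and 2), and endosomal and Golgi SNAREs in 15 of 24 (17 and 17), 8 (11 and 10) and 4 (2 and 3).

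Markers of cell types were read against the same background shares. In susceptible mice 0 of 8 astrocyte, 1 of 8 oligodendrocyte (Myrf, 1 lower site), 1 of 8 microglial (Cx3cr1, 6 lower), 0 of 7 vascular and 1 of 13 medium spiny neuron genes (Foxp1, 2 higher) held a site. In resilient mice Cx3cr1 (1 lower) and Foxp1 (2 higher, 1 lower) did. Among ELS - SbD sites, 3 of the 13 medium spiny neuron genes (Foxp1, Pde10a and Rgs9) held 9, all higher, Slc1a2 held 2 higher, Mbp 1 higher and P2ry12 1 lower. Their part in the results above was not tested.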

How the data were processed

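Members and gene lists were chosen with earlier results of these data known. The submitters' processing notes name mm10 and, in no stated order, Bowtie2 2.4.1, MACS2 2.2.6, cutadapt 2.10, Trim Galore 0.6.5 and SAMtools 1.10. Differential sites came from diffReps 1.55.4 with a p cutoff of 0.0001, windows of 1000 bp, a step of 100 bp and fragments of 100 bp, per the file headers; duplicates had been removed, per the file names in those headers. The signal the authors deposited for each library is its reads in the site over a library constant. The deposited enrichment is the authors' ratio of signal to IgG, the deposited log2 fold change is of group means, and each site carries a deposited p-value that the authors adjusted over 270324 (susceptible), 275586 (resilient) and 1287727 (ELS - SbD) windows for H3K27me1 and 48304 and 52728 for H3K27me2, per the file headers. Windows that missed the p limit were not analysed here.

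Sites were joined to GENCODE M21 genes, which use the files' build, by an overlap of at least 1 bp. Limma 3.58.1 (R 4.3.3) was fitted to log2(normalised count + 1) over all sites of a table and tested on simulated data; a fold change on this scale understates low counts. Named genes were the 10 per direction and table with the smallest authors' adjusted p (5 for H3K27me2), those with sites in 3 or more tables, and Rb1cc1 and Trappc10, leaving out sites with a mean below 10 reads; a gene's leading site has its smallest adjusted p. Genes outside this rule that are named were chosen after their values were seen. Means are ± SD over libraries and fold changes ± SE. Python 3.11.15, pandas 2.3.3, numpy 2.4.6 and scipy 1.17.1 were used, with figures by matplotlib 3.10.9.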

Additional observations from a re-analysis of the deposited data

Results flagged for a closer look

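Among 140 groups of 4 libraries at leading sites, 9 held a library far from the others, where chance gives about 1 in 20; the value is its gap to the nearest library over the group's range. At Exoc1 in the susceptible table these were control library 31, at 217 reads (0.938), and susceptible library 32, at 178 (0.874). At Exoc2, susceptible library 26 was low at 202 reads (0.842). In the resilient table, control library 28 was low at Rab21, at 264 reads (0.875), and high at Rab27b, at 77.0 (0.977). Trappc8 had a low resilient library 27, at 237 (0.863), and a low control library 34 in the susceptible table, at 134 (0.855). Control library 34 was also low at Vps13b in that table, at 135 (0.901), and control library 25 at Vps33a in the resilient table, at 129 (0.875).

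Snx30 was lower in susceptible mice (-0.55) and higher in ELS - SbD mice (0.72). Vps13b, at chr15:35473401-35475400, was higher in susceptible mice (0.44) and lower in ELS - SbD mice (-0.78). At each gene the windows of the cohorts overlapped only in part. No library of one group overlapped the other in these 4 comparisons, and the difference between cohorts was not tested.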

How the results depend on the processing

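Counts of member sites and genes stayed within 1.5 times under the alternatives run, with 1 exception. At an adjusted p limit of 0.01 the ELS - SbD table kept 18 higher and 8 lower sites in 19 genes, from 41, 18 and 35. Leaving out each library in turn, limma passed 79 to 99 higher and 96 to 116 lower susceptible sites, 48 to 52 higher and 49 to 57 lower resilient sites, 39 to 41 higher and 17 to 18 lower ELS - SbD sites, and 0 to 0 in both H3K27me2 tables. The alternatives were all deposited sites, gene bodies alone, site midpoints, a mean of at least 20 reads, pseudocounts of 0.5 and 5, and limma voom on reads recovered from the normalised counts, which was chosen after seeing the data. No leading site of a named gene reversed. The planned count models on recovered reads were not run. No paired analysis was possible because no groups compared share replicate numbers. The second cohort's depth of 5.0 to 7.78 reads per bin limits the precision of its values, and windows under the deposit limit were not analysed here.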
